A study of Homo sapiens with 6 samples.

Results

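Immediate early and short-lived response genes were examined in HEK293, an established line derived from human embryonic kidney, after siRNA against the RNA helicase MOV10. The rule named 10 genes by symbol, and 8 of them were among the 7682 genes of the deposited table: FOS, JUN, JUND, IER2, ZFP36L2, BTG2, GADD45B and MCL1. EGR1 and MYC were not analysed here. The rule uses no measured value, but the genes were picked with earlier results of these data known. The tested cells were transfected with MOV10 siRNA and the cells they were set against were mock transfected. Both were grown in serum-containing medium and labelled with 700 µM 4-thiouridine (4sU), a uridine analogue built into new RNA, for 60 min. Sequencing libraries of polyadenylated RNA covered the labelled fraction, the unlabelled flow-through and unfractionated total RNA. The siRNA sequence and the time after transfection are not given in the sources used here, and with 1 siRNA condition, effects of the siRNA and of MOV10 loss cannot be told apart.

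Immediate early genes are transcribed within minutes of a growth factor, serum or stress signal from factors already present in the cell, and their mRNAs are destroyed quickly. Many of them carry AU-rich elements in the 3' UTR, short runs built around AUUUA that bind proteins such as the ZFP36 family and call in the deadenylases that shorten the poly(A) tail. FOS, JUN and JUND encode subunits of the dimeric transcription factor AP-1. IER2 is a small nuclear immediate early protein. ZFP36L2 is itself an AU-rich element binding protein that promotes decay, and BTG2 is an antiproliferative protein that binds the CCR4-NOT deadenylase. GADD45B is a stress-induced activator of MAP kinase signalling, and MCL1 is a short-lived antiapoptotic protein of the BCL2 family.

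The AU-rich pentamer and the place it sits in these 3' UTRs are shown first, because it is the best known sequence feature of short-lived mRNAs. The longest annotated 3' UTR of each gene was taken from GENCODE v29 (GRCh38). The authors' reads were aligned to hg18, per the submitters' processing notes, so the coordinates locate the motifs only. The pentamer ATTTA was present in 6 of the 8 3' UTRs. It was counted on the transcript strand, overlaps included, 10 times in MCL1, 5 times each in FOS and ZFP36L2, 3 times in JUN, 2 times in BTG2 and 1 time in JUND. No copy of these letters lay in the annotated 3' UTRs of IER2 (1050 bases) and GADD45B (658 bases). In each line the 30 bases that hold the most pentamers are given 5' to 3', with ATTTA in capitals. The stretches lie at chr14:75282058-75282087 (+) for FOS, chr2:43223452-43223481 (-) for ZFP36L2, chr1:150576216-150576245 (-) for MCL1, chr1:58781335-58781364 (-) for JUN, chr19:18279997-18280026 (-) for JUND and chr1:203307528-203307557 (+) for BTG2.
FOS: tgtgtttttaATTTATTTAttaagatggat
ZFP36L2: tgaaaactATTTAacttATTTAttatcttg
MCL1: acctaATTTAactggtgaaATTTAaagtga
JUN: tccagaaaggatATTTAagaaaatacaata
JUND: cgattctgccctATTTAtgtttctactcgg
BTG2: aaatgaagagctATTTAtatatattatttt

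The pentamer was common among all genes. Of 5663 tested genes with an annotated 3' UTR, 73.7% held at least 1 ATTTA, against 79.3% of the 285 such genes among the shortest 5% of mock half-lives. For FOS, 8.07% of 632 3' UTRs within 20% of its length held as many copies. The same share was 22.2% for MCL1, 41.5% for JUN, 43.0% for ZFP36L2, 61.2% for JUND and 81.2% for BTG2. The longer form TTATTTATT was found in FOS and ZFP36L2 only among the 8, and in 9.06% of all 5663 3' UTRs. A match is a description of letters and not of a bound site, and no match says only that these letters are not in that 3' UTR.

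How stable were these mRNAs? In mock cells all 8 lay among the shortest-lived mRNAs of the table. FOS had authors' half-lives of 46.1 and 45.8 min in the mock columns, BTG2 49.3 and 50.4 min, and IER2 55.2 and 51.5 min. The mean of FOS was the 20th shortest of the 7682 genes, that of BTG2 the 25th and that of IER2 the 35th. GADD45B followed at 78.8 and 76.0 min, JUN at 97.5 and 90.5 min and ZFP36L2 at 99.6 and 100.0 min. JUND (140.9 and 122.6 min) and MCL1 (138.5 and 147.9 min) were the longest-lived of the group and were the 363rd and 436th shortest of all. The columns of JUND and MCL1 overlapped, while all other neighbours in this order were separated in both mock columns. The header names no time unit. Minutes were inferred by recomputing half-lives from the 3 fractions, which over 6064 genes gave medians of 466 and 431 min after siRNA and 557 and 625 min in mock. The deposited medians were 764 and 1030 after siRNA and 742 and 810 in mock. The magnitude is that of minutes, but the medians differ by condition in opposite directions, shorter after siRNA when recomputed and longer as deposited.

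The fractions can also be read without the half-life calculation. In mock, labelled over flow-through values gave ratios of 9.52 and 9.86 for FOS and 9.65 and 9.66 for BTG2. For IER2 they were 6.62 and 7.49. The ratio was lowest in JUND, at 1.83 and 2.21. Both fractions are not on 1 scale, so these ratios are not amounts of new over older RNA. When total RNA was fitted as their weighted sum, the mock weights were 0.124 and 0.125 for labelled RNA. For flow-through RNA they were 0.672 and 0.729. Relative to the median gene, the labelled fraction was higher in the 7 members tested, by 1.88 log2 units in JUND to 3.90 in BTG2 (limma, Benjamini-Hochberg adjusted p of 5.33e-07 or less in each), beside 33.2% of all 6064 genes higher, 54.6% lower and 87.8% called in either direction by the same test. FOS was not tested in this comparison, since its total RNA after siRNA lay under 5, the mean that both conditions had to reach. Adjusted for transcript GC content, length and number of coding exons, the excess was 0.87 in JUND and 1.15 in JUN instead of 1.88 and 2.92.

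MOV10 mRNA was lower after siRNA, with no overlap of the columns. It also lay under the expression minimum after siRNA and was not tested. Its total RNA was 3.53 and 3.64 in the siRNA columns, against 13.1 and 14.6 in the mock columns. The table's 12 expression columns hold 2 replicates of each of the 6 groups, in a normalised unit that the header does not name. The labels do not say if these were separate cultures, so p-values measure the spread between columns, which may be technical. The values are not counts and the depth is unknown. Of 17 markers of other cell types 0 were in the table, and 5 of 10 markers chosen for HEK293 were, with vimentin (VIM) and neurofilament (NEFL) among them. The table holds 7682 genes, so absence from it does not show that a gene was absent from the cells. In bulk RNA, fewer cells of a kind and less RNA per cell cannot be told apart. Changes below are log2 differences of value + 1, siRNA minus mock, relative to the median gene, and were tested over 6064 genes. Before centring, the median of all genes moved by 0.14 in labelled RNA and 0.20 in half-life. Levels were not compared between genes, because it is not known whether the values are per length.

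Did new RNA of these genes change? Labelled RNA fell in the 7 members tested, and also in FOS when no expression minimum was set. The members' median change was -0.55, against 0.00 over all genes. Of all genes, 11.5% were lower, 9.88% higher and 21.4% called in either direction (limma, Benjamini-Hochberg adjusted p under 0.05). Without centring, 333 genes were lower and 1641 higher, against 700 and 599 with it. In each of the 8 genes the siRNA values as deposited were lower than the mock values without overlap, which held for 14.3% of all genes tested, while 54.3% were higher without overlap.

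FOS labelled RNA was at 16.8 and 14.2 after siRNA, against 42.8 and 45.7 in mock, 2.85-fold lower. The siRNA values were thus well clear of the mock values. FOS failed the expression minimum because it fell. In the fit without that minimum its change was -1.58 (limma, Benjamini-Hochberg adjusted p = 9.24e-08). JUND, an AP-1 subunit that is usually expressed more constantly than JUN, was at 55.8 and 46.3 after siRNA, against 111.9 and 116.1 in mock. Its columns did not overlap, and the change was -1.29 (SE 0.10, limma, Benjamini-Hochberg adjusted p = 4.21e-05). JUN labelled RNA was at 295 and 247 after siRNA, against 354 and 364 in mock. The fall of JUN was smaller, -0.55 (SE 0.11, adjusted p = 0.00579 by the same limma test), although the groups were separated. IER2 was at 105.6 and 89.4 after siRNA, against 193 and 203 in mock. That is 2.03-fold lower, with a change of -1.16 (SE 0.10, limma adjusted p = 6.37e-05). In the ranking of all 6064 changes, JUND and IER2 stood below percentile 0.1.

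Among the regulators, ZFP36L2 labelled RNA was at 53.4 and 46.0 after siRNA, against 73.4 and 79.6 in mock (change -0.75, limma adjusted p = 0.000862). MCL1 was at 107.5 and 115.0 after siRNA, against 153 and 144 in mock (change -0.55, limma adjusted p = 0.00146). Both groups were separated in both genes. BTG2 was at 36.7 and 34.5 after siRNA, against 43.4 and 41.0 in mock, and GADD45B at 89.5 and 71.9 against 95.0 and 96.2. These were the smallest falls, -0.38 in BTG2 and -0.39 in GADD45B (limma adjusted p = 0.00775 and 0.0246), and GADD45B no longer passed without siRNA replicate 2 (-0.22, limma adjusted p = 0.124). Neither passed without centring (-0.24 and -0.25, limma adjusted p = 0.0796 and 0.0971).

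**Figure D1:**
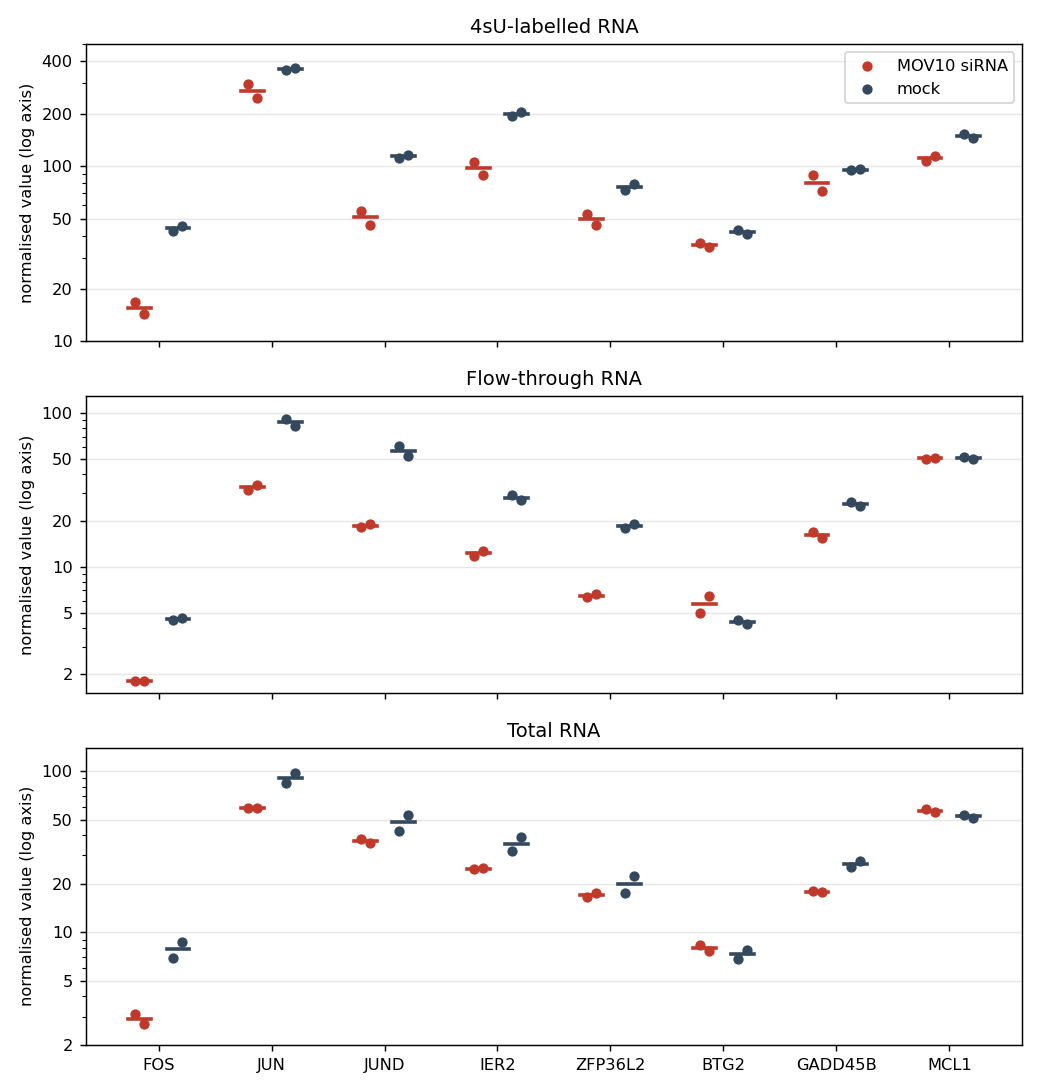
Normalised values of the 8 genes in labelled, flow-through and total RNA, on log axes. Points are the 2 columns of each condition, MOV10 siRNA left of mock, and bars are their means. In labelled RNA the siRNA points lie below the mock points in each of the 8 genes, while in flow-through RNA BTG2 lies above and MCL1 overlaps.

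Labelled RNA changes over all genes were also read by half-life class. Of the 303 genes in the shortest 5% of mock half-lives, labelled RNA was lower in 31.7% and higher in 6.93% by the same test. Of the 1516 genes in the longest 25%, it was lower in 7.45% and higher in 7.72%. The classes rest on half-lives computed from the same mock cells, so class and change are not independent. The shortest class also holds the 7 members tested. Changes also moved with transcript features. The median change of labelled RNA was -0.11 over 231 genes with 1 coding exon, as JUN, JUND and IER2 have, against 0.02 over 4465 genes with 5 or more. Adjusted for GC content, length and coding exons, the 7 members tested still passed the test, JUND at -0.80, IER2 at -0.88 and JUN at -0.36 (limma adjusted p = 0.000725, 0.000862 and 0.0175). GADD45B was nearest to the threshold (-0.29, limma adjusted p = 0.0492).

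What happened to the older, unlabelled RNA? Flow-through RNA divided the group. It fell in JUN, JUND, IER2, ZFP36L2 and GADD45B, rose in BTG2 and did not pass the test in MCL1. Of all genes, 26.8% were lower and 31.7% higher in flow-through RNA by the same limma test, 58.6% in all. In the 303 genes of the shortest 5% of mock half-lives, 39.3% were lower and 17.2% higher. The members' median change was -1.12, against 0.03 over all genes. Without overlap, 6 of the 8 genes were lower, FOS among them, and 1 higher, where 38.5% and 42.2% of all genes were. JUND flow-through RNA was at 18.0 and 18.8 after siRNA, against 61.1 and 52.6 in mock, 3.09-fold lower (change -1.55, SE 0.07, limma adjusted p = 9.67e-05). ZFP36L2 was at 6.32 and 6.65 after siRNA, against 17.9 and 18.9 in mock, 2.84-fold lower. JUN was at 31.6 and 34.2 after siRNA, against 91.4 and 83.0 in mock, 2.65-fold lower. In these 3 genes the groups were widely separated, and their changes stood below percentile 0.5 of all genes.

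IER2 flow-through RNA was at 11.8 and 12.7 after siRNA, against 29.2 and 27.1 in mock (change -1.12, limma adjusted p = 0.000148). FOS was at 1.80 in both siRNA columns, against 4.50 and 4.63 in mock, 2.54-fold lower. GADD45B fell less, to 16.8 and 15.5 after siRNA, against 26.4 and 24.9 in mock (change -0.62, limma adjusted p = 0.000686). BTG2 was the member that rose, at 5.03 and 6.42 after siRNA, against 4.50 and 4.24 in mock (change 0.33, limma adjusted p = 0.0415). That call rested on few columns and was lost without siRNA replicate 2 (0.19, limma adjusted p = 0.183), mock replicate 1 or mock replicate 2. MCL1 was level, at 50.5 and 51.1 after siRNA, against 51.9 and 50.4 in mock (change 0.01, SE 0.04). The flow-through changes also moved with GC content. The median change was -0.21 over the 1135 genes with the highest GC content (58.6% to 74.6%) and 0.14 over the 1135 with the lowest. Transcript GC content was 69.7% in JUND, 61.7% in IER2, 60.4% in GADD45B, 56.7% in JUN and 54.4% in ZFP36L2. It was 52.6% in FOS, 50.3% in BTG2 and 45.1% in MCL1. With adjustment for GC content, length and coding exons, JUND was at -0.75 and IER2 at -0.68, while JUN was at -1.08 and ZFP36L2 at -1.19. All 4 passed the limma test after adjustment, the largest adjusted p being 0.000489.

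**Figure D2:**
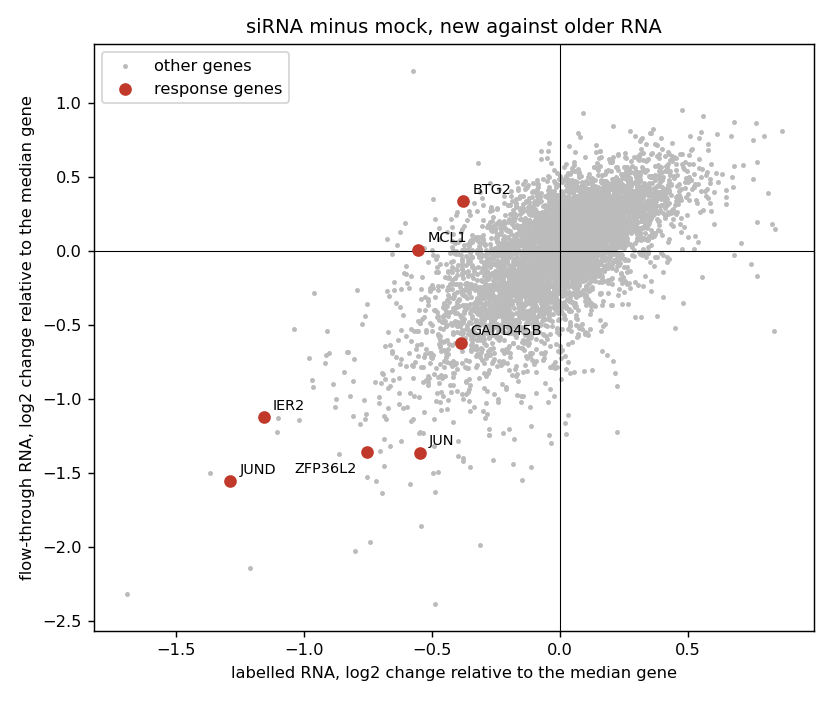
Log2 changes, siRNA minus mock, relative to the median gene, in labelled RNA (x axis) and flow-through RNA (y axis) for the 6064 genes tested. Red points are the 7 members tested, which all lie left of 0 in labelled RNA, while BTG2 lies above 0 in flow-through RNA and JUND is the lowest of the 7 at -1.55.

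Did new and older RNA respond differently? The difference was tested as an interaction of fraction and condition, which 10.4% of all genes passed, 5.92% with a higher and 4.47% with a lower labelled change. JUN (0.82, limma adjusted p = 0.00517) and ZFP36L2 (0.61, limma adjusted p = 0.0178) lost more flow-through than labelled RNA. BTG2 (-0.71, limma adjusted p = 0.00934) and MCL1 (-0.56, limma adjusted p = 0.00198) lost labelled RNA without a fall in flow-through RNA. JUND, IER2 and GADD45B did not pass (0.27, -0.03 and 0.24). The ratio of labelled to flow-through JUN RNA was 9.34 and 7.21 after siRNA, against 3.87 and 4.38 in mock. For BTG2 it was 7.30 and 5.38 after siRNA, against 9.65 and 9.66 in mock. With 1 replicate left out, ZFP36L2 lost the call without siRNA replicate 1, mock replicate 1 or mock replicate 2, BTG2 without mock replicate 1 or 2, and JUN without mock replicate 1. In FOS the ratio of labelled to flow-through RNA was 9.35 and 7.91 after siRNA, against 9.52 and 9.86 in mock. Its interaction of -0.61 in the fit without the expression minimum (limma adjusted p = 0.0184) is on the value + 1 scale, which understates the flow-through change of so low a gene, and the plain falls were 2.85-fold in labelled and 2.54-fold in flow-through RNA.

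Half-lives, as the authors computed them, changed in 3 of the 7 members tested, where 6.15% of all genes did. JUN was at 54.2 and 83.7 min after siRNA, against 97.5 and 90.5 min in mock, and ZFP36L2 at 60.6 and 91.6 min against 99.6 and 100.0 min. Both lay below mock in both columns, and both passed the test at -0.67 and -0.62 (SE 0.13 and 0.11, limma adjusted p = 0.034 and 0.0294), where 4.27% of all genes were shorter. MCL1 was at 197 and 256 min after siRNA, against 138.5 and 147.9 min in mock. Its half-life rose by 0.46 (SE 0.09, limma adjusted p = 0.0368), where 1.88% of all genes were longer. BTG2 was at 65.8 and 108.3 min after siRNA, against 49.3 and 50.4 min in mock. The columns were separated, and at 0.56 (SE 0.13) BTG2 stood at percentile 99.1 of all changes, but it did not pass (limma adjusted p = 0.0567).

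FOS, IER2, JUND and GADD45B gave no half-life call. Over the 8 genes, 2 were shorter and 3 longer without overlap, where 4.25% and 33.3% of all genes were. FOS was at 51.5 and 72.7 min after siRNA, against 46.1 and 45.8 min in mock (0.23, limma adjusted p = 0.307 without the expression minimum). IER2 was at 49.6 and 73.1 min after siRNA, against 55.2 and 51.5 min in mock, JUND at 104.1 and 158.9 min against 140.9 and 122.6 min, and GADD45B at 66.5 and 90.5 min against 78.8 and 76.0 min. In these 3 the mock values lay between the siRNA values. The half-lives in the second siRNA column were longer than in the first by 0.43 log2 units at the median gene, and each of the 8 genes shows this shift. In the recomputed half-lives the median of the second siRNA column was the shorter one. None of the 3 half-life calls held in every setting. JUN, ZFP36L2 and MCL1 all lost the call with no expression minimum (limma adjusted p = 0.06, 0.0562 and 0.0663), without centring, and without mock replicate 1, mock replicate 2 or siRNA replicate 1. MCL1 also lost it without siRNA replicate 2 (0.48, limma adjusted p = 0.0651). In half-lives recomputed from the fractions, JUN was at -0.47 and ZFP36L2 at -0.40 and neither passed (limma adjusted p = 0.0712 and 0.0872), while BTG2 (0.64) and MCL1 (0.53) did (limma adjusted p = 0.0321 and 0.0158). Those changes are relative to the median gene, and the recomputed medians were shorter after siRNA. In minutes, recomputed JUN was at 39.0 and 43.7 after siRNA, against 77.0 and 74.3 in mock. ZFP36L2 was at 41.5 and 44.9 against 73.8 and 76.4, and BTG2 at 45.6 and 53.2 against 40.6 and 42.6. MCL1 overlapped, at 115.5 and 103.4 after siRNA against 95.3 and 104.2 in mock.

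**Figure D3:**
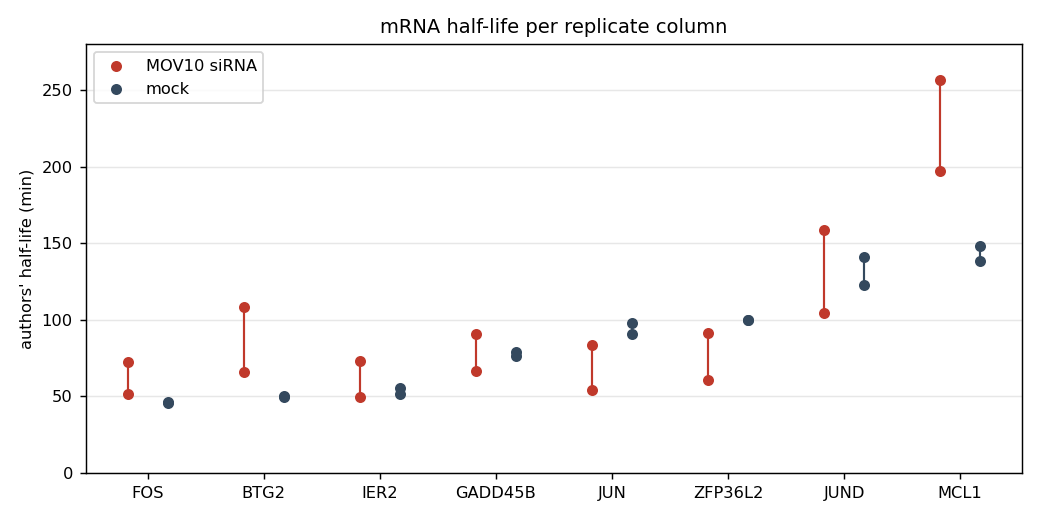
Half-lives in minutes as computed by the authors, per replicate column, ordered by the mock mean. MOV10 siRNA is left of mock, and a line joins the 2 columns. JUN and ZFP36L2 lie below their mock values after siRNA, and FOS, BTG2 and MCL1 above, and the siRNA columns are further apart than the mock columns in every gene.

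In total RNA, 4 of the 7 members tested fell. JUN was at 58.9 and 59.4 after siRNA, against 84.9 and 97.2 in mock (change -0.59, SE 0.07, limma adjusted p = 2.89e-05). GADD45B was at 18.0 and 17.8 after siRNA, against 25.5 and 27.9 in mock (change -0.53, limma adjusted p = 0.000147). IER2 was at 24.7 and 24.9 after siRNA, against 32.0 and 38.7 in mock (change -0.47, limma adjusted p = 0.000678). The groups were separated in all 3 genes. JUND was at 38.0 and 35.7 after siRNA, against 42.7 and 53.7 in mock (change -0.35, limma adjusted p = 0.00694), and lost the call without mock replicate 2 (limma adjusted p = 0.0553). FOS was at 3.10 and 2.68 after siRNA, against 6.97 and 8.76 in mock, 2.72-fold lower. ZFP36L2 was at 16.5 and 17.4 after siRNA, against 17.6 and 22.5 in mock, and did not pass. Neither did BTG2, at 8.29 and 7.63 after siRNA against 6.83 and 7.76 in mock, nor MCL1, at 58.0 and 55.5 against 53.5 and 51.2. In all, 4 of the 7 members tested were lower and 0 higher by limma, beside 14.3% and 12.9% of all genes and 27.2% in either direction. At an unadjusted p under 0.05 it was 5 members, all lower, beside 2385 of the 6064 genes in either direction. Without overlap, 6 of the 8 genes were lower and 1 (MCL1) higher, where 30.8% and 29.9% of all genes were.

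**Figure D4:**
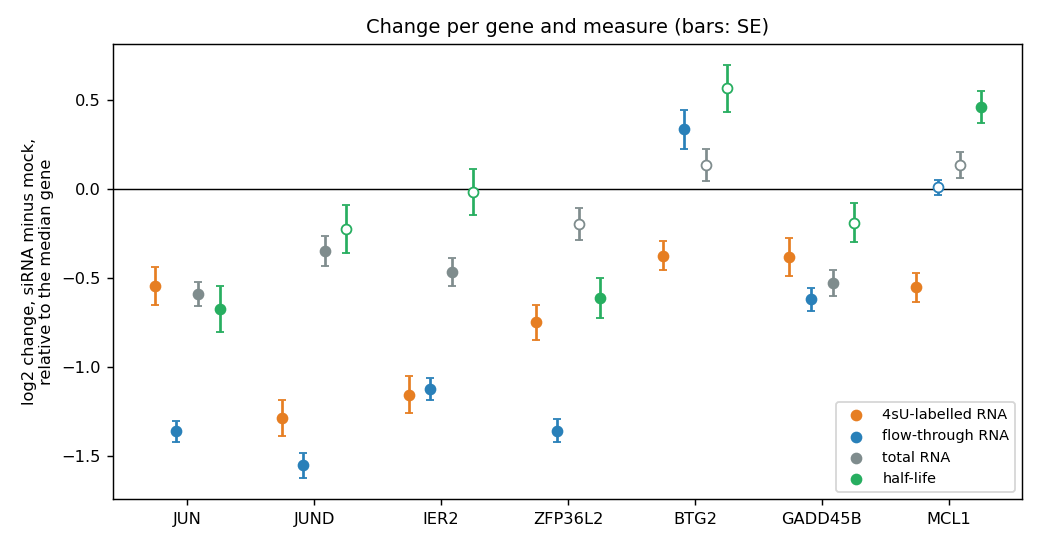
Log2 changes, siRNA minus mock, relative to the median gene, for the 7 members tested, with SE. Colours mark labelled RNA, flow-through RNA, total RNA and half-life, and open symbols did not pass the limma test. Labelled RNA is below 0 in each gene, while half-life passed as lower in JUN and ZFP36L2 and as higher in MCL1. BTG2 half-life lies above that of MCL1, at 0.56, but did not pass.

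The balance of the 3 fractions of JUND and ZFP36L2 differed between the siRNA and mock columns. Total RNA was fitted as a weighted sum of labelled and flow-through RNA over all tested genes, with 1 pair of weights per condition and replicate. The measured total of JUND was 1.88 and 1.84 times the fitted sum after siRNA, against 0.78 and 1.02 times in mock. For ZFP36L2 the ratio was 1.40 and 1.55 after siRNA, against 0.83 and 0.95 in mock, and for IER2 1.08 and 1.15 against 0.73 and 0.86. JUND and ZFP36L2 stood at percentiles 99.6 and 97.8 of all genes after siRNA, against 10.6 and 9.47 in mock. IER2 stood at 74.8 after siRNA and 1.2 in mock, JUN at 43.7 and 5.24, and BTG2 at 24.3 and 7.5. MCL1 stood at 76.5 after siRNA and 34.25 in mock, FOS at 14.3 and 11.25, and GADD45B at 9.27 and 10.1. The ratio of FOS was 0.86 and 0.81 after siRNA and 0.83 and 0.96 in mock, without a gap between the groups. In JUND, labelled and flow-through RNA fell by 1.29 and 1.55 on the log2 scale, while total RNA fell by 0.35. The half-lives of these genes after siRNA rest on these same values. Why the fractions differ was not tested.

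**Figure D5:**
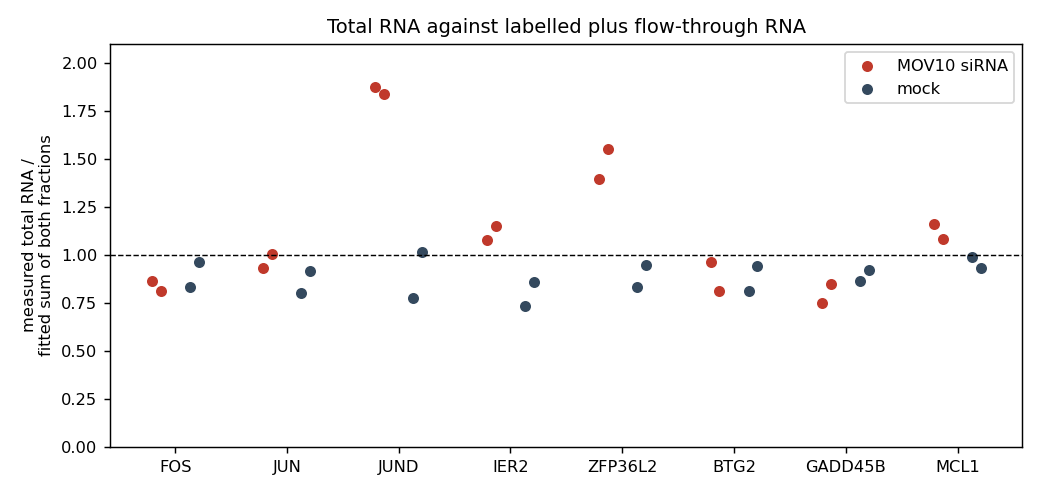
Measured total RNA divided by the fitted sum of labelled and flow-through RNA, per replicate column, MOV10 siRNA left of mock. At the dashed line the fractions add up to the total. After siRNA, JUND lies at 1.88 and 1.84 and ZFP36L2 at 1.40 and 1.55, while the mock points of all 8 genes lie between 0.73 and 1.02.

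Promoters are shown because labelled RNA of these genes fell, but a link between promoter motifs and that fall was not tested. A RefSeq (GRCh38.p14) promoter sequence, from 250 bases before to 50 after the start, was at hand for 6 of the 8 genes. MCL1 and ZFP36L2 were without one. Of 7 motifs searched on both strands, the core of the cyclic AMP response element, TGACG, was found in 5 (JUN, JUND, FOS, IER2 and BTG2), beside 24.6% of 35116 promoters. The full element TGACGTCA, which contains that core, was found in JUND and in 1.85% of all, and the related TGACATCA in JUN and in 2.61%. The TATA box TATAAA was found in FOS and GADD45B and in 11.5% of all, and the E box CACGTG in GADD45B and in 7.26%. The AP-1 site TGACTCA and the CArG box were in none of the 6 windows, beside 4.95% and 1.29% of all. Sites further upstream lie outside these windows, so no match does not mean that a gene lacks the element. A match is a description of letters and not of a bound site. The elements of the 3 AP-1 genes are shown in capitals within 30 bases. They lie at chr1:58784096-58784125 (-) for JUN, chr19:18281804-18281833 (-) for JUND and chr14:75278752-75278781 (+) for FOS, with their first base at positions -67, -200 and -64, the annotated start being 0.
JUN: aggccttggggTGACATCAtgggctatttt
JUND: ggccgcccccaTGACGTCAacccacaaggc
FOS: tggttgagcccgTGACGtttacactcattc

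Other genes of the response were read from lists chosen by function, with earlier results of these data known. Of 34 further immediate early transcription factors, 15 were tested, and labelled RNA fell in 10 and rose in 0, with a median change of -0.37, against 0.00 over all genes. Flow-through RNA fell in 9 and rose in 1, total RNA fell in 7 and rose in 2, and 0 half-lives passed the limma test (2 were longer at an unadjusted p under 0.05). Of all genes, labelled RNA was lower in 11.5% and higher in 9.88%, and flow-through RNA in 26.8% and 31.7%. Total RNA was lower in 14.3% and higher in 12.9%, and half-life in 4.27% and 1.88%. The lists below are read beside the same shares. In the shortest 5% of mock half-lives, labelled RNA was lower in 31.7% and higher in 6.93%. In JUNB, the third JUN gene, labelled RNA was at 36.4 and 36.7 after siRNA, against 66.0 and 70.6 in mock (change -1.02, limma adjusted p = 6.37e-05). Its flow-through RNA changed by -1.14 and its total RNA by -0.50. Of 36 other early response genes 14 were tested, and labelled RNA fell in 9 and rose in 0 (10 and 1 at an unadjusted p under 0.05). In these 14, flow-through RNA fell in 11 and rose in 1, total RNA fell in 7 and rose in 2, and half-life fell in 3 and rose in 1. Half-life calls of single genes named here and in the next paragraph are from the main fit only. No half-life call among the members held in every setting. CITED2, a transcriptional coregulator, had half-lives of 28.6 and 49.2 min after siRNA, against 64.9 and 64.8 min in mock (-0.98, limma adjusted p = 0.0174). The cyclin gene CCND1 went the other way in half-life (0.60, limma adjusted p = 0.024) while its labelled RNA fell (-0.41, limma adjusted p = 0.00519), the same signs as in MCL1. The pseudokinase gene TRIB1, the shortest-lived of the genes tested in mock apart from a snoRNA entry, had labelled RNA of 69.1 and 60.6 after siRNA, against 110.4 and 112.1 in mock (change -0.91, limma adjusted p = 0.000201). Of the other 4 shortest-lived genes by the same rule, HES1 fell in labelled RNA (-0.37, limma adjusted p = 0.0207). CHAC1 (-0.0018), ADM (-0.16) and SNORD22 (-0.12) did not pass (limma adjusted p = 0.991, 0.298 and 0.432).

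Partners and regulators of the 8 genes were read in the same way. Of 17 tested genes of the MAP kinase and SRF input to immediate early genes, labelled RNA passed in 0 by limma with adjustment (2 higher and 1 lower at an unadjusted p under 0.05). Total RNA rose in 5 and fell in 1 of them, where 12.9% and 14.3% of all genes did, and the half-life of MAPK8, which encodes the JUN kinase JNK1, rose by 0.65 (limma adjusted p = 0.0201). Of 13 AU-rich element binding and deadenylation factors, labelled RNA fell in 2 and rose in 0, where 11.5% and 9.88% of all genes did. Total RNA rose in 3 and fell in 0 of them, and 0 half-lives passed the limma test (4 were longer at an unadjusted p under 0.05). In the BTG and TOB family, BTG2's relative BTG3 had half-lives of 438 and 629 min after siRNA, against 276 and 271 min in mock (0.75, limma adjusted p = 0.011), and half-life rose in 1 of 4. Of 10 BCL2 family genes beside MCL1, labelled RNA fell in 3 and rose in 1, beside the same shares, and the half-life of BCL2L13 fell. Of 8 MYC network genes labelled RNA fell in 1, and of 5 AP-1 partners it fell in 1, JUNB. Of 3 genes of the GADD45 list it fell in 1, CDKN1A. With so few genes tested, these counts are not set apart from the 11.5% of all genes. Of 18 interferon-stimulated genes 3 were in the table and 2 were tested, and labelled RNA passed in 0 by limma (1 was lower at an unadjusted p under 0.05).

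Outside these lists, the 5 genes with the most similar profile over the 12 expression columns were FOXB1, MID1IP1, IRF2BP2, ZIC2 and FZD8, at Euclidean distances of 0.46 to 0.61 from the members' median profile. Labelled RNA of ZIC2, a zinc finger transcription factor, was at 151.9 and 147.6 after siRNA, against 216 and 205 in mock. Its flow-through RNA was at 30.5 and 27.6 after siRNA, against 58.1 and 64.5 in mock. In all 5, labelled and flow-through RNA were lower (limma adjusted p of 0.0246 or less), a direction that follows from how they were chosen.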

How the data were processed

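Per the labels' protocols, poly(A)+ TruSeq libraries of total, 4sU-labelled and flow-through RNA were sequenced, and half-lives were computed by a published method (Schwanhausser et al.). Per the submitters' processing notes, TopHat2 2.06 and hg18 were used; no source used here names the tool that quantified expression. The authors deposited 1 table with a normalised signal per gene in 12 columns and, in another unit, 4 half-life columns. GEO lists 6 samples, and the header adds replicates 1 and 2.

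The filter required a mean total RNA of at least 5 in each condition and left 6064 of 7682 genes. Values were log2(value + 1), half-lives log2, each centred on the median gene, and compared with limma 3.58.1 (R 4.3.3, mean-variance trend, Benjamini-Hochberg at 0.05). A fold is a plain ratio of group means. On simulated data 88.0% of half-life changes of 1 log2 unit were recovered, and 9.00% of those of 0.5. The simulated spreads were shuffled over genes, so these rates do not describe single genes. Recomputed half-lives used first-order decay over 60 min. Transcript features matched 93.6% of genes. Members and lists were chosen with earlier results of these data known. Named beside the members are genes from, per list, the 2 largest half-life increases and the 2 largest decreases, the 5 shortest-lived in mock, the 5 nearest profiles, and MOV10. The adjustment for transcript features was added after seeing the data. No source used here says whether counting used strand, so reads of overlapping antisense genes cannot be told apart.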

Additional observations from a re-analysis of the deposited data

Results flagged for a closer look

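In 4 genes the response of new and of older RNA differed by the interaction test of fraction and condition. The labelled minus flow-through change was 0.82 in JUN and 0.61 in ZFP36L2, where flow-through RNA fell more. It was -0.71 in BTG2 and -0.56 in MCL1, where labelled RNA fell and flow-through RNA did not. Over all genes, 271 were lower and 359 higher by this test. Fewer passed in each direction with 1 replicate of 1 condition left out, which drops its labelled and its flow-through column. The change then ranged from 0.63 to 1.00 in JUN and 0.47 to 0.75 in ZFP36L2. It ranged from -0.90 to -0.51 in BTG2 and -0.60 to -0.52 in MCL1. Of all genes 10.4% passed this test.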

How the results depend on the processing

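For half-life, the 2 members called shorter and 1 called longer became 0 and 0 with the replicate block, with no expression minimum and without centring. They became 1 shorter with a minimum of 20, 2 longer without the trend, and 0 shorter and 2 longer in recomputed half-lives. With 1 column left out, 0 to 2 were shorter and 0 longer. The replicate block changed 1 other call, total RNA of ZFP36L2 (-0.20, limma adjusted p = 0.0327). The header's numbers were not shown to pair the columns (correlations of same-numbered deviations -0.07 to 0.11). For the interaction, 1 column left out means here 1 replicate of 1 condition, dropped in both fractions. With 1 column left out, total RNA was lower in 3 to 5 members and higher in 0 to 1, labelled RNA lower in 6 to 7, flow-through RNA lower in 5 and higher in 0 to 1, and the interaction higher in 0 to 2 and lower in 1 to 2. With a minimum of 20, where 4 members remained, labelled RNA was lower in 4 and flow-through RNA lower in 3 and higher in 0. Without centring flow-through RNA was higher in 0. The sign of some uncalled values turned. IER2 half-life was 0.176 without centring, 0.117 recomputed, 0.118 with transcript features and -0.132 to 0.0946 with 1 column left out. The IER2 interaction was 0.0066 with a pseudocount of 0.1 and -0.207 to 0.141 with 1 column left out. GADD45B half-life was 0.0035 without centring. With transcript features, JUND half-life was 0.0279 and its interaction -0.0533. MCL1 flow-through RNA was -0.009 without centring and -0.0042 to 0.0186 with 1 column left out. Causes were not tested. Half-life calls over all genes, 259 shorter and 114 longer, became 118 and 21 with the replicate block, 5 and 2 without centring, 94 and 63 with a minimum of 20 (2603 genes tested), and 292 and 208 when recomputed. Total RNA calls higher numbered 451 without centring, against 783 with it. The nonamer was found in 2 genes, against 6 with the pentamer. Labelled over flow-through RNA in mock with 1 replicate left out has 1 column against 1 and gave values without a test. Depth is unknown, so no counting error is given.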
